A study of Mus musculus with 6 samples.

Results

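The genes described here are Plat, Plau, Plaur, Serpine2 and Thbs1, 5 of the 55416 genes in the deposited RNA-Seq table. They were picked by symbol, with LDL-treated against PBS-treated organoids already known to differ for genes of this kind, so the LDL and PBS levels of these 5 genes are given as a description without a test. Plat encodes tissue-type plasminogen activator and Plau urokinase, the serine proteases that cut plasminogen into plasmin. Plaur encodes the urokinase receptor, which holds urokinase at the cell surface. Serpine2 encodes protease nexin-1, a serpin that inhibits thrombin, urokinase and plasmin, and Thbs1 encodes thrombospondin-1, a secreted matrix glycoprotein that binds CD36 and CD47 and can activate latent TGF-beta. Plasmin degrades fibrin and matrix proteins, and in epithelia the system is best known for its part in wound repair and cell migration.

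Crypts from duodenum and jejunum of 3 wild-type C57BL/6 mice were grown as organoids in Matrigel, a basement membrane extract. For 5 days the medium held either LDL at 50 μg/ml or PBS as the vehicle. Each mouse gave 1 LDL-treated and 1 PBS-treated library, so the replicate number stands for the animal and n = 3 per treatment. All 6 samples carry the WT genotype label, but the animal name given for mouse 3 has another prefix than the names of mice 1 and 2. Whether that animal differs from the others was not tested.

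The libraries held 22061545 to 31073360 reads on genes. A normalized count is a number of reads divided by 1 size factor per library, and 1 read was worth 0.814 to 1.24 normalized counts. The LDL-treated library of mouse 1 stood apart: it had reads on 35781 genes against 29285 to 32751 in the other 5 libraries, and the ribosomal RNA gene Rn18s-rs5 took 7.62% of its reads. Olfactory and vomeronasal receptor genes, 1546 genes taken by name, gave a measure of stray reads. Whether gut cells use some of them was not tested. They held 0.7505 normalized counts per kb of exon in that library and 0.196 to 0.305 in the others.

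The cultures were epithelial by their markers. The summed normalized counts of 6 epithelial markers, among them Epcam and Vil1, were 78143 to 102065 with LDL and 68147 to 72681 with PBS. Plat, Serpine2 and Thbs1 are also made by fibroblasts, endothelium and platelets, so markers of these cells were read beside them. The summed counts of 7 fibroblast markers were 15.5 to 43.9 with LDL and 30.9 to 37.3 with PBS, and the highest value of a single gene was 29.8. For 5 endothelial markers the sums were 30.9 to 73.2 with LDL and 33.6 to 60.2 with PBS. The sums of 4 platelet markers were 19.1 to 43.9 with LDL and 32.3 to 49.0 with PBS. Smooth muscle markers (4 genes) summed to 17.3 to 40.2 with LDL and 26.9 to 34.7 with PBS, and immune markers (6 genes) to 161 to 233 and 145 to 209. In LDL-treated organoids each of these 6 sums was lowest in mouse 2. No marker was at 0 in all libraries. Among the markers of other cell types that could be tested, the smallest adjusted p was 0.0927, for Pdgfrb, which was lower with LDL (log2 difference -0.94, limma with a term for the mouse). Of the 7 fibroblast markers only Pdgfrb could be tested, and the others had at most 8 reads per library. Reads of Col3a1 were 7, 1 and 7 with LDL and 0, 0 and 1 with PBS in mice 1, 2 and 3. Those of Dcn were 4, 0 and 3 against 0, 0 and 0, and those of Pdgfra 4, 1 and 5 against 0, 1 and 4. Col1a2 went the other way (3, 0 and 2 against 5, 1 and 5), and Col1a1 and Lum differed in direction between mice. The part of other cells in the results below was not tested. Among the epithelial markers, the keratins Krt8, Krt18 and Krt20 were higher with LDL in the fit with the mouse term (adjusted p = 0.0108, 0.00116 and 0.0334 from limma) but not in the fit without it (0.100, 0.132 and 0.133). The other epithelial markers were not called in either fit, with log2 differences of -0.12 for Epcam, 0.38 for Cdh1 and 0.24 for Vil1. In bulk RNA, more cells of a type and more RNA per cell cannot be told apart.

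LDL-treated organoids of all 3 mice had more Plat, Plau, Plaur and Thbs1 than their PBS-treated counterparts, and for these 4 genes every LDL-treated value lay above every PBS-treated value. Among the 18459 genes whose normalized counts averaged 10 or more, 24.2% were higher in all 3 mice, 11.9% had every LDL-treated value above every PBS-treated one and 12.3% had every value below. These shares are the background for the count, from which nothing is read since the genes were chosen on the same comparison. Serpine2 did not pass this minimum, and its treatments overlapped.

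**Figure D1:**
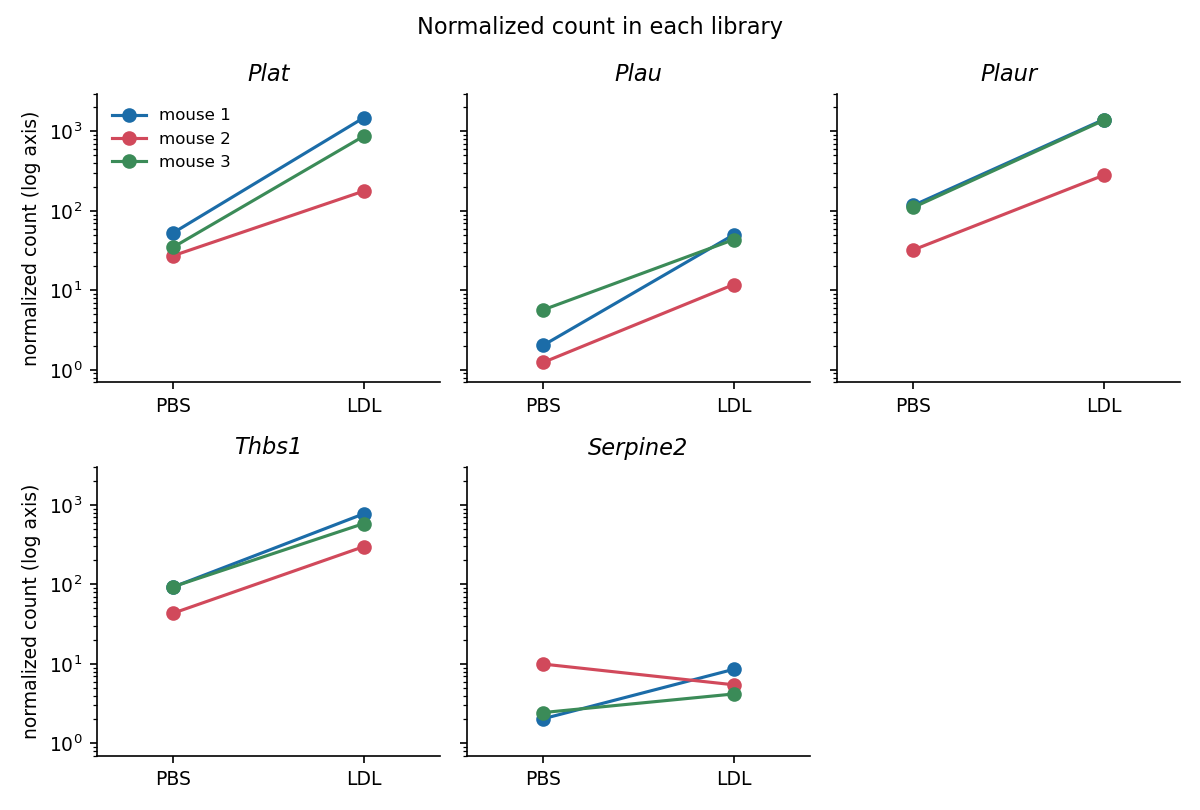
Normalized count on a log axis in each of the 6 libraries, with lines joining the PBS- and LDL-treated cultures of a mouse. Plat, Plau, Plaur and Thbs1 were higher with LDL in all 3 mice and lowest in mouse 2 in both treatments, whereas Serpine2 stayed between 2.04 and 9.94.

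Plat (ENSMUSG00000031538) lies on the plus strand of chromosome 8 of GRCm39 from 23247709 to 23272871, and its main transcript has 14 exons. Its normalized counts were 1482, 177 and 870 in the LDL-treated organoids of mice 1, 2 and 3 and 53.1, 27.3 and 35.0 in the PBS-treated organoids of the same mice. The lowest LDL-treated value was 3.34 times the highest PBS-treated one. The means were 843 ± 653 and 38.5 ± 13.2 (SD, n = 3). The difference of the mean log2 values was 4.01, with a standard error of 0.70 from limma. Here and below, the standard errors of log2 differences are limma's, which draw on the spread of all genes tested. They are not the spread of these 3 mice alone. Plat varied more between mice under LDL than any other of these genes, with an 8.36-fold range, against 1.94-fold under PBS. Within a mouse, LDL over PBS was 27.9-fold in mouse 1, 6.49-fold in mouse 2 and 24.8-fold in mouse 3. The 95% counting interval of mouse 2, from 4.16 to 10.6, lay below those of mouse 1 (21.1 to 37.6) and mouse 3 (18.3 to 34.5). These intervals cover counting error only, and culture-to-culture variation within a mouse was not measured.

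Plau (ENSMUSG00000021822), on the plus strand of chromosome 14 from 20886722 to 20893453 with 11 exons, was a weakly expressed gene. It had 41, 13 and 52 reads in the LDL-treated libraries of mice 1, 2 and 3 and 2, 1 and 7 reads in the PBS-treated ones. In normalized counts these were 50.01, 11.8 and 43.5 with LDL and 2.04, 1.24 and 5.70 with PBS, so the lowest LDL-treated value was 2.07 times the highest PBS-treated one. The difference on the log2 scale was 3.10 with a standard error of 0.64. Since the PBS-treated libraries held so few reads, the within-mouse folds were poorly fixed. They were 24.5 (95% counting interval 6.36 to 209) in mouse 1, 9.51 (1.43 to 404) in mouse 2 and 7.63 (3.45 to 19.9) in mouse 3. Exons of Plau overlap the long noncoding RNA gene Gm63115 on the other strand by 388 bases, and the strand setting of the counting is not given in the sources used here.

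Plaur (ENSMUSG00000046223), on the plus strand of chromosome 7 from 24161875 to 24175394 with 7 exons, had normalized counts of 1411, 281 and 1378 in the LDL-treated organoids of mice 1, 2 and 3. With PBS they were 117, 32.3 and 111. Mouse 2 was the low animal in both treatments, and mice 1 and 3 had nearly the same normalized counts. The means were 1023 ± 643 with LDL and 86.8 ± 47.3 with PBS (SD, n = 3), and the log2 difference was 3.43 with a standard error of 0.70. In contrast to Plat, the fold was similar across mice. It was 12.02 (95% counting interval 9.92 to 14.7), 8.70 (5.82 to 13.5) and 12.4 (10.4 to 14.9), and the intervals overlapped. With the mouse as a term, limma's standard error of the log2 difference became 0.14 for Plaur and 0.37 for Plat. The SD of the within-mouse log2 differences over the 3 mice was 0.30 for Plaur and 1.18 for Plat.

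Promoter sequences in the RefSeq table (GRCm38.p6) were found for 2 of the 5 genes, Plaur and Serpine2, and not for Plat, Plau and Thbs1. The Plaur sequence is shown because the receptor was the most abundant of these genes per length in every library. It is the part of the 250 bases before the RefSeq start that lies in no annotated exon, and it matched GRCm39 exactly at chr7:24161658-24161874 on the plus strand. The capitals mark the letters TGANTCA, the AP-1 motif, and GGGCGG, the GC box of the Sp1 family, whose copies partly overlap here.

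Plaur promoter: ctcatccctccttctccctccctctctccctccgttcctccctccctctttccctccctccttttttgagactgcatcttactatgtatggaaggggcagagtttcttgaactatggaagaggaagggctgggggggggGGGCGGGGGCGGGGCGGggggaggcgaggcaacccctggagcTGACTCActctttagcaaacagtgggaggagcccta

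The AP-1 match in Plaur begins 69 bases before the RefSeq start, and the GC boxes begin 111, 105 and 100 bases before it. Over 32851 promoters of the same length, searched on both strands, 6.75% held TGANTCA and 32.7% held GGGCGG. The other motifs searched, GGAATG (TEAD), TGACGTCA (CRE), the PPAR direct repeat 1 element, the SRF CArG box and TATAAA, had no match in this window. They were present in 12.6%, 1.55%, 0.0335%, 0.0609% and 12.4% of the promoters. In the Serpine2 window 6 copies of GGGCGG were found and no other motif of the 7, and 239 of its 250 bases lie in an annotated exon. A match in letters is not a bound site.

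Thbs1 (ENSMUSG00000040152), on the plus strand of chromosome 2 from 117941974 to 117957616 with 22 exons, had the most even LDL over PBS ratio of the 5 genes. Its normalized counts were 772, 298 and 582 with LDL and 92.9, 43.5 and 93.6 with PBS in mice 1, 2 and 3. The means were 551 ± 238 and 76.7 ± 28.7 (SD, n = 3), and the log2 difference was 2.80 with a standard error of 0.41, or 0.13 with the mouse as a term. Within a mouse LDL over PBS was 8.31-fold (95% counting interval 6.66 to 10.5), 6.86-fold (4.83 to 10.02) and 6.22-fold (5.10 to 7.64). The noncoding genes Gm13986 and Gm29233 overlap exons of Thbs1 on the other strand by 511 and 208 bases, with mean normalized counts of 1.71 and 0.

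Serpine2 (ENSMUSG00000026249), on the minus strand of chromosome 1 from 79763323 to 79839144 with 9 exons, had 7, 6 and 5 reads in the LDL-treated and 2, 8 and 3 reads in the PBS-treated libraries of mice 1, 2 and 3. In normalized counts the LDL-treated values were 8.54, 5.46 and 4.18 and the PBS-treated values 2.04, 9.94 and 2.44. The highest of all 6 values was that of PBS-treated organoids of mouse 2, and the groups overlapped. Within-mouse folds were 4.18 (95% counting interval 0.796 to 41.3), 0.549 (0.157 to 1.80) and 1.71 (0.333 to 11.02), so each interval included 1. Per kb of merged exon, Serpine2 was 0.924 to 2.21 times the level of the olfactory and vomeronasal receptor genes with LDL and 0.810 to 2.99 times with PBS. Its 36 transcripts merge to 12315 bases of exon, against 2210 in the main transcript, so these ratios depend on the length used. A difference in Serpine2 was not detectable at this depth.

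**Figure D2:**
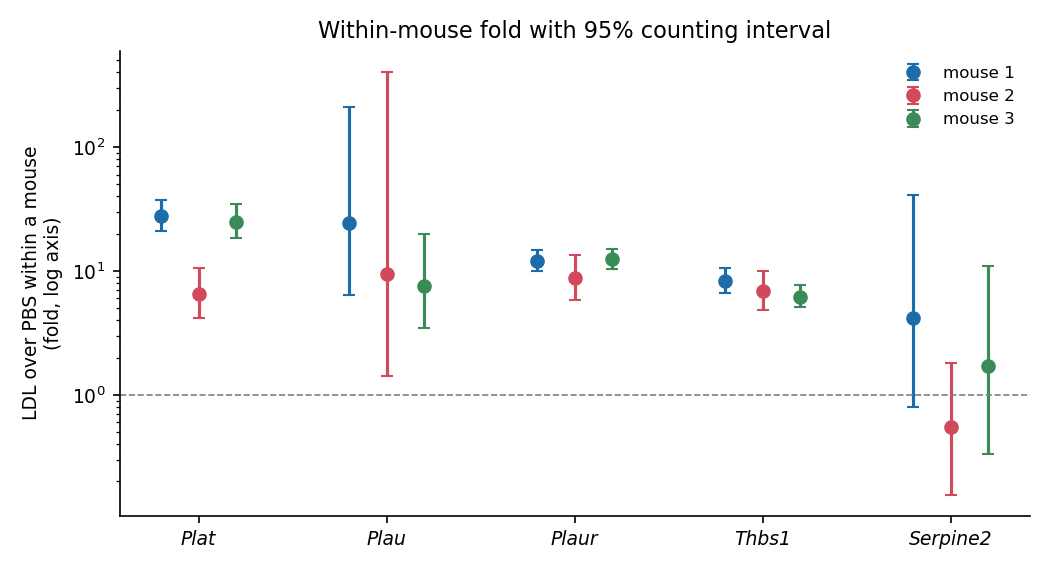
LDL over PBS within each mouse on a log axis, with 95% counting intervals as bars and a dashed line at 1. The interval of Plat in mouse 2 lies below those of mice 1 and 3, the intervals of Plaur and of Thbs1 overlap, and those of Serpine2 include 1.

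In mouse 2 the folds of Plat, Plaur and Thbs1 were alike, with overlapping counting intervals, whereas in mice 1 and 3 the interval of Plat lay above those of Plaur and Thbs1. All 4 genes that were higher with LDL had their lowest level in mouse 2 under LDL and also under PBS, and all 5 genes had their highest LDL-treated value in mouse 1, the library with the most genes detected. Without that library the log2 differences were 3.37 for Plat, 2.74 for Plau, 3.03 for Plaur, 2.51 for Thbs1 and 0.25 for Serpine2. Without both libraries of mouse 3 they were 3.72, 3.29, 3.33, 2.90 and 0.44.

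Per kb of exon, the order under LDL was Plaur highest and Plau lower than Plat and Thbs1 in each mouse. Plaur had 70.3 to 353 normalized counts per kb with LDL and 8.08 to 29.4 with PBS, and Plat had 25.4 to 213 and 3.92 to 7.61. Thbs1 had 46.2 to 120 per kb with LDL and 6.73 to 14.5 with PBS. By merged exon length, Plat and Thbs1 changed places between mice. Plat was above Thbs1 in LDL-treated organoids of mice 1 and 3. It was below Thbs1 in LDL-treated organoids of mouse 2 and in all PBS-treated organoids. The order was the same with the longest transcript as the length. Plat has 6973 bases of merged exon and 2590 in its main transcript, against 6458 and 6233 for Thbs1. Division by the main transcript would raise Plat relative to Thbs1, and the order by that length was not tested. Plau had 4.61 to 19.5 per kb with LDL and 0.484 to 2.22 with PBS. Against the receptor genes of the olfactory system in the same library, Plat was 127 to 409 times, Plaur 351 to 1131 times, Thbs1 159 to 296 times and Plau 23.0 to 55.6 times as high with LDL. With PBS the lowest of these ratios was 1.79, for Plau in mouse 2, where it rested on 1 read.

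**Figure D3:**
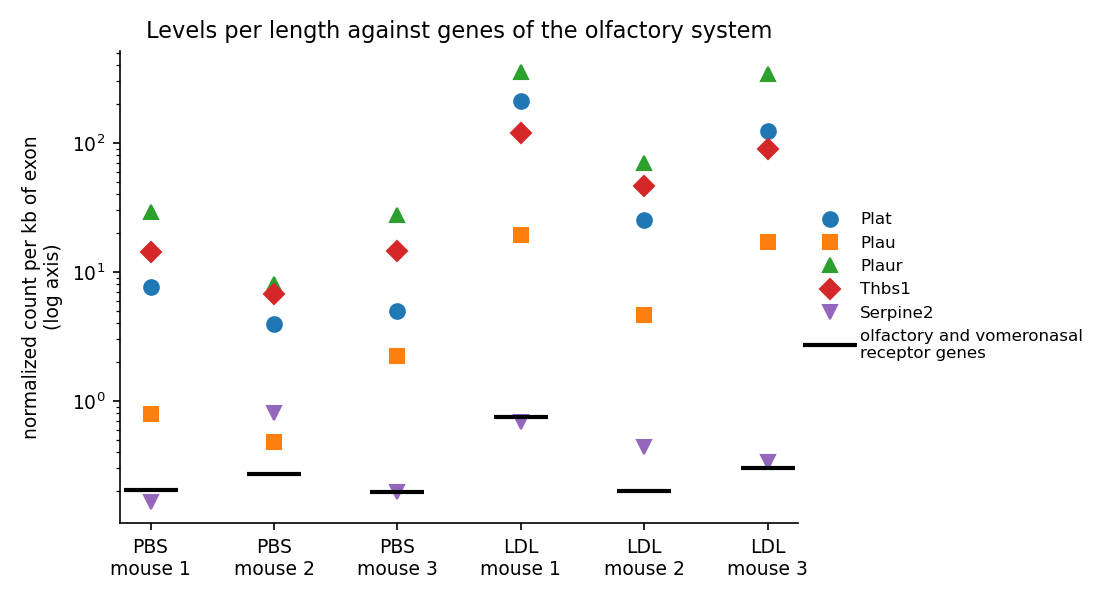
Normalized count per kb of merged exon on a log axis in each library, with a bar for 1546 olfactory and vomeronasal receptor genes as a measure of stray reads. Plaur is the highest point in every library, Serpine2 lies at 0.810 to 2.99 times the bar, and the bar is highest at 0.7505 in the LDL-treated library of mouse 1. The position of Serpine2 depends on its merged length of 12315 bases, against 2210 in its main transcript.

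The transcripts of the receptor exceeded those of its ligand in every library. Plaur over Plau per length was 18.1, 15.3 and 20.3 with LDL and 36.9, 16.7 and 12.5 with PBS in mice 1, 2 and 3. Plat over Plau was 10.9, 5.52 and 7.36 with LDL and 9.57, 8.10 and 2.26 with PBS, so Plat exceeded Plau in each culture. The PBS ratios rest on 2, 1 and 7 reads of Plau. With the longest transcript as the length, Plat over Plau was 18.04, 9.13 and 12.2 with LDL and 15.8, 13.4 and 3.74 with PBS. The ratios of LDL- and PBS-treated organoids overlapped in both cases.

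For each gene, the protein-coding genes with the most similar profile over the 6 libraries were taken among 10246 or 10247 genes with a mean of at least 100. Likeness was the root mean square difference of log2 values after each gene's own mean was removed. The 5 genes were chosen on the same comparison of LDL and PBS. Genes much higher with LDL then lie near each other and far from the median gene by construction, so nothing is read from that. Plaur was closest to Anxa3, an annexin (0.20), and to Grhl3, a grainyhead transcription factor of epithelial barrier repair (0.26), where the median gene was at 2.00. Plat was closest to Syt16 (0.33) and to Nid1, the basement membrane protein nidogen-1 (0.39). Thbs1 was closest to the magnesium channel gene Trpm6 (0.30) and the RNA-binding protein gene Rbms1 (0.30). Plau was closest to Sprr2a1 and Sprr2a2 (0.35 and 0.36), small proline-rich proteins of the epithelium that are near copies of each other and may share reads. The PBS-treated values of Plau rest on 2, 1 and 7 reads. The nearest genes to Serpine2 were Ndrg1 (0.34) and Maf (0.41), where the median gene was at 0.72, and its profile rests on 2 to 8 reads per library. Among the 5 genes themselves, Plau and Thbs1 (0.44), Plau and Plaur (0.49), Plaur and Thbs1 (0.56) and Plat and Plaur (0.56) were closest, while Serpine2 was 1.54 to 2.12 from the others.

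The nearest tested genes on both sides of the 5 genes, 10 in all, had log2 differences of -0.34 to 0.53, all under the 1.5-fold threshold used below. The largest was that of Vcl, which encodes vinculin and lies 85996 bases from Plau (adjusted p = 0.0996 without and 0.00462 with the mouse term, from limma).

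Which other genes of pericellular proteolysis differed between LDL- and PBS-treated organoids was asked with 137 related genes, grouped by role. The lists were drawn up with earlier results of these data known, so the shares below are descriptions of these lists. Calls required an adjusted p-value below 0.05 together with more than 1.5-fold change, by limma on log2 values with Benjamini-Hochberg adjustment over all genes tested. Of the 80 related genes tested, limma without the mouse called 0 higher and 0 lower, although 41 had an unadjusted p-value under 0.05, 12 of them lower. In the same limma fit, 3634 of all 18459 genes tested had an unadjusted p-value under 0.05. Over all genes tested, limma without the mouse called 0.878% higher and 0.395% lower. On the recovered reads, edgeR without the mouse also called 0 related genes in either direction, against 186 higher and 70 lower of all 18459 genes. DESeq2 without the mouse called 18 related genes higher and 5 lower, against 846 and 348 of all 18459 genes. With the mouse as a term, 22 of the 80 were called higher and 7 lower, that is 27.5% and 8.75%, against 5.68% and 3.46% of all genes tested. The median log2 difference of the 80 genes was 0.26, where that of all genes was -0.02. Every LDL-treated value lay above every PBS-treated value in 25 of the 80 genes, against 11.9% of all genes tested, and below in 8, against 12.3%. The calls depended on mouse 3. With its libraries left out, 4 of the 29 calls were kept, those of F3, Mmp15, Adam8 and Wfdc2, although all 29 kept their direction and none moved by more than 1.5-fold, and the calls over all genes went from 1048 higher and 639 lower to 265 and 77. Without mouse 1, 21 of the 29 calls were kept, and those of Serpinf2, Vldlr, Tfpi2, Itga2, Itgav, Itgb5, Timp2 and Adamts1 were lost. Without mouse 2, 28 were kept and that of Tgm2 was lost. In DESeq2 with the mouse term, Anxa2 and Itgb5 were not called (Benjamini-Hochberg adjusted p = 0.0515 and 0.0662), while edgeR with the mouse term called all 29.

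In the plasminogen system, 10 of 21 related genes were tested, and 1 was higher and 2 were lower with the mouse term. Anxa2, which with S100a10 forms a cell-surface receptor for plasminogen and tissue-type activator, was called higher with the mouse term (log2 difference 1.38, adjusted p = 0.112 without and 0.0173 with it, from limma). Its normalized counts were 9000, 2998 and 8511 with LDL and 2423, 2463 and 2195 with PBS, so mouse 2 again had the smallest difference. S100a10 had a log2 difference of 0.52, under the fold threshold (adjusted p = 0.0258 with the mouse term from limma). Serpinf2, which encodes the plasmin inhibitor alpha-2-antiplasmin, fell by 1.37 on the log2 scale in the fit with the mouse term (adjusted p = 0.101 without and 0.0152 with it, from limma), with 18.3, 16.4 and 27.6 normalized counts under LDL and 76.6, 34.8 and 58.6 under PBS. Vldlr, an endocytic receptor that clears protease-inhibitor complexes, fell by 0.72 (adjusted p = 0.0753 without and 0.0189 with the mouse term, from limma). Lrp1, another such receptor, and Plgrkt, a plasminogen receptor, had log2 differences of -0.35 and -0.51, both under the fold threshold, and that of Lrp1 turned to 0.038 under upper-quartile scaling.

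Plasminogen itself was hardly transcribed in these cultures. Plg had 1, 0 and 2 reads with LDL and 0 reads with PBS in every library, which allows up to 3 reads each by counting error. Serpinb2, which encodes PAI-2, had at most 1 read per library, and Vtn, which encodes the adhesive protein vitronectin, a ligand of the urokinase receptor, had at most 4.

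In coagulation, 14 of 28 genes were tested, and 3 were higher and 2 lower with the mouse term. F3 encodes tissue factor, which starts the clotting cascade on cell surfaces. Its normalized counts were 4340, 251 and 2604 with LDL and 180, 52.2 and 156 with PBS, and its log2 difference was 3.63 (adjusted p = 0.112 without and 0.00101 with the mouse term, from limma). The within-mouse folds of F3 were 24.2, 4.81 and 16.7, with mouse 2 lowest, as for Plat, and without mouse 2 the log2 difference was 4.32 in the fit with the mouse term. Procr, the endothelial protein C receptor gene, had 39, 4 and 37 reads with LDL and 1, 0 and 0 with PBS (adjusted p = 0.00612 with the mouse term from limma, and a log2 difference of 3.93, or 4.79 without mouse 2), and the transglutaminase gene Tgm2 had a log2 difference of 0.61 (adjusted p = 0.0145 with the mouse term from limma). The lower genes were Tfpi2, a Kunitz-type inhibitor of plasmin and the tissue factor pathway (log2 difference -1.24), and Pros1, the anticoagulant protein S (-1.12). Their adjusted p-values were 0.0152 and 0.0121 with the mouse term from limma.

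Among thrombospondins and the receptors and partners of thrombospondin-1, 20 of 27 genes were tested, and 10 were higher and 0 lower with the mouse term. Thbs1 was the member of its family with an appreciable level: Thbs2 had 0 to 3 reads, Thbs4 0 to 3 and Thbs3 3 to 17 reads per library. Of its receptors, Cd36 was higher with a log2 difference of 1.95 (adjusted p = 0.0780 without and 0.00333 with the mouse term, from limma), with normalized counts of 41.5, 79.1 and 56.0 under LDL and 9.19, 27.3 and 10.6 under PBS. Unlike Plat, Plau, Plaur and Thbs1, Cd36 was highest in mouse 2 in both treatments. Cd47 had 951 to 1037 normalized counts with LDL and 918 to 997 with PBS, a log2 difference of 0.06 with a standard error of 0.09 that was not called (adjusted p = 0.756 from limma). The integrin genes Itgb6 (log2 difference 1.14), Itga5 (0.95), Itga3 (0.72), Itga2 (0.67), Itgav (0.65) and Itgb5 (0.63) were called with the mouse term. Tgfb1, whose latent protein thrombospondin-1 and integrin alpha-v beta-6 can activate, had a log2 difference of 1.91 (adjusted p = 0.138 without and 0.00384 with the mouse term, from limma). The matricellular genes Ccn2 and Ccn1 had log2 differences of 3.22 and 1.46 (adjusted p = 0.00360 and 0.0102 with the mouse term, from limma). Without mouse 1 that of Ccn2 was 2.63.

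Of the metalloproteinases and TIMPs, 15 of 31 genes were tested, and 6 were higher and 1 lower with the mouse term. Mmp15, a membrane-anchored metalloproteinase gene, had 2236, 739 and 2311 normalized counts with LDL and 447, 293 and 441 with PBS, a log2 difference of 2.01 (adjusted p = 0.0643 without and 0.000743 with the mouse term, from limma). The sheddase gene Adam8 (2.89), the aggrecanase family member Adamts1 (2.83), the inhibitor Timp2 (1.58), Mmp28 (1.35) and the Paneth cell product Mmp7 (0.75) were also higher, Adamts1 with 3 reads in LDL-treated organoids of mouse 2 and 1 to 3 reads in PBS-treated ones. The log2 difference of Adamts1 was 2.16 without mouse 1 and 3.87 without mouse 2, in the fit with the mouse term. In the fit without the mouse term, that of Timp2 went from 1.58 to 0.93 when LDL-treated mouse 1 was left out and to 2.51 when LDL-treated mouse 2 was. Timp3, a matrix-bound inhibitor, was the lower one, with 63.4, 80.0 and 66.9 normalized counts under LDL and 131, 145 and 122 under PBS (log2 difference -0.91, adjusted p = 0.0543 without and 0.00795 with the mouse term, from limma). Among 21 tested genes of 30 other pericellular serine proteases and inhibitors, 2 were higher and 2 lower. Wfdc2, which encodes a WAP-domain protein (log2 difference 3.29), and Serpinb5, the maspin gene (1.76), were higher. Spink1, a trypsin inhibitor gene (-1.58), and the protease gene Prss23 (-0.78) were lower. In the fit without the mouse term, leaving out LDL-treated mouse 2 moved Wfdc2 to 4.31, Serpinb5 to 2.59, Spink1 to -2.25 and Adam8 to 3.73. With PBS-treated mouse 2 left out they were 2.56, 1.51, -1.12 and 2.25. The membrane proteases St14 and Prss8 and their inhibitors Spint1 and Spint2 had log2 differences of 0.22, -0.46, 0.36 and 0.15, all under the fold threshold.

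**Figure D4:**
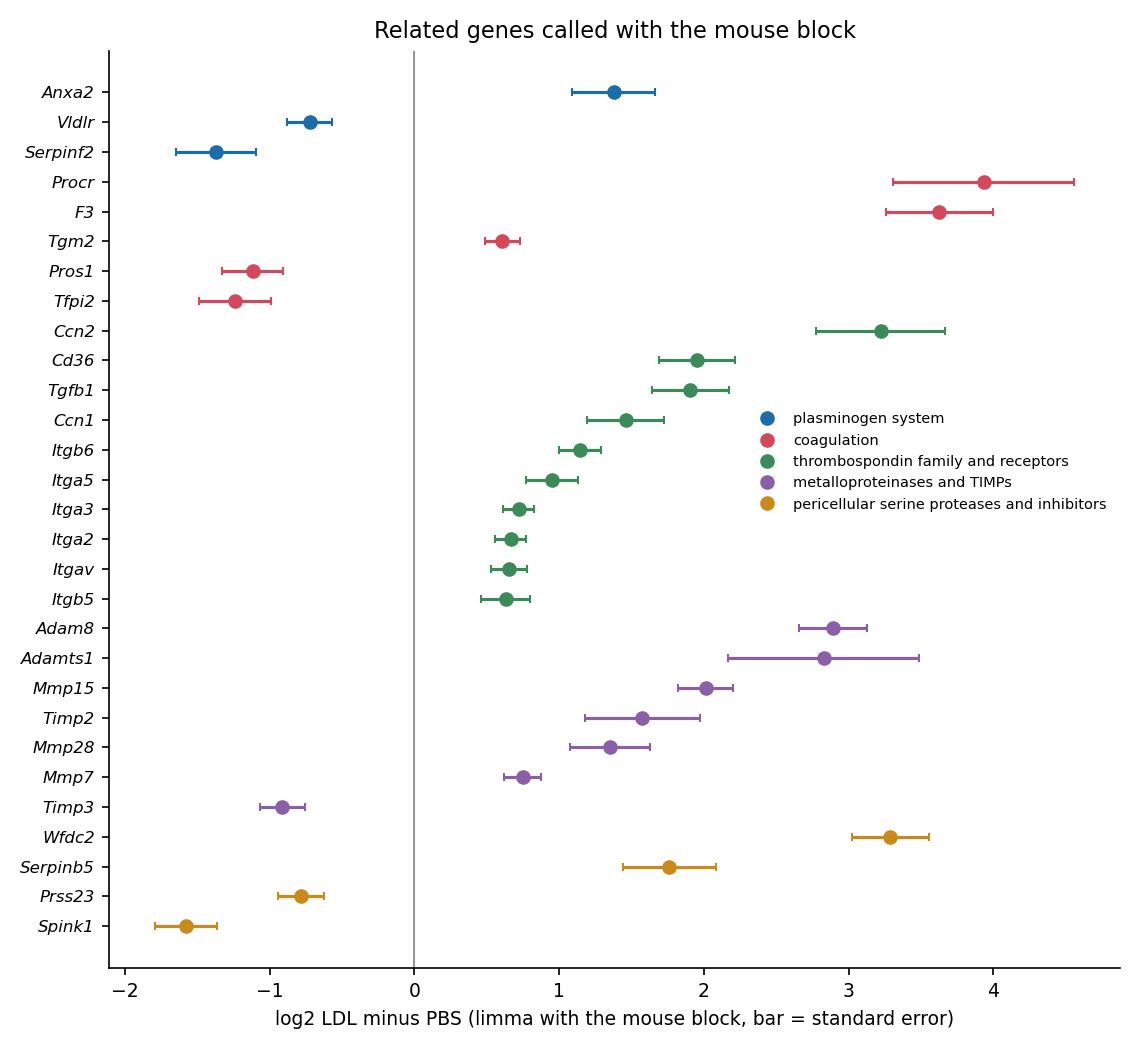
Log2 difference between LDL- and PBS-treated organoids for the 29 related genes called by limma with the mouse term, colored by group, with standard errors as bars. Of these, 22 lie to the right of 0 and 7 to the left.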

How the data were processed

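The authors aligned the reads with STAR to GRCm39, counted them per gene with featureCounts and deposited signal values, that is, normalized counts (reads divided by 1 size factor per library). The annotation release and the strand setting are not given in the sources used here. Division by the worth of 1 read gave whole reads in 100% of values (within 0.05). Names and positions came from GENCODE M39, which held 54749 of the 55416 identifiers. The identifiers not found held 1.47% of the reads. Of all genes, 18459 averaged 10 or more normalized counts. Their log2 values, after 1 was added, were compared with limma 3.58.1 (eBayes with a trend, two-sided, Benjamini-Hochberg) in R 4.3.3, without the mouse, since the methods name no such term, and with the mouse as a replicate block. The labels give both libraries of a replicate number the same animal, and their deviations from the treatment means correlated with r = 0.48, 0.42 and 0.46 across genes. DESeq2 1.42.0 and edgeR 4.0.16 on the recovered reads were alternatives. Reads per length used the merged exons of all transcripts. Counting intervals are exact (Clopper-Pearson) on the share of a mouse's reads, from scipy 1.17.1. Stray reads were measured in genes named Or or Vmn receptors. The scripts were tested on simulated data. The 5 genes, the related lists and the motifs were chosen with earlier results of these data known. Named were the 5 genes, all related genes called in either fit, direct partners, and the 2 nearest profiles per gene. A few other related genes, the flanking genes and the marker genes were named after their values had been seen. Some planned values are not reported here.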

Additional observations from a re-analysis of the deposited data

How the results depend on the processing

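Results over all genes and over related genes depended on the fit. The numbers of all genes called higher and lower were 162 and 73, and of related genes 0 and 0. The replicate block gave 1048 and 639 (related 22 and 7), DESeq2 846 and 348 (18 and 5), DESeq2 with the block 981 and 511 (21 and 7), edgeR 186 and 70 (0 and 0) and edgeR with the block 1171 and 588 (23 and 7). Without a filter there were 506 and 245 (13 and 2), and without mouse 3 every count was 0, with 1272 genes at an unadjusted p-value under 0.05. Upper-quartile scaling moved the median log2 difference of all genes to 0.37 and gave 322 and 36 (related higher 3), so 89.9% of calls were higher against 68.9%. Under it Lrp1 reversed to 0.038. At any fold change the counts stayed within 1.5 times. Leaving out 1 library gave 18 to 1179 higher and 2 to 1133 lower genes, and 0 to 25 and 0 to 8 related genes. The most calls came with mouse 2's LDL-treated library left out and the fewest with mouse 3's. The block without 1 mouse (chosen after seeing the data) gave 758, 1604 and 265 higher and 327, 1348 and 77 lower genes without mice 1, 2 and 3, of which 17, 27 and 4 and 4, 8 and 0 were related genes. Log2 differences ranged over 3.37 to 4.90 for Plat, 2.19 to 3.74 for Plau, 2.83 to 4.20 for Plaur, 2.44 to 3.19 for Thbs1 and 0.15 to 1.08 for Serpine2. With the longest transcript as length, Plaur over Plau had medians of 34.6 with LDL and 31.8 with PBS, against 18.1 and 16.7. Plat over Plau was higher with it too, at 18.04, 9.13 and 12.2 with LDL and 15.8, 13.4 and 3.74 with PBS. In both ratios only the length used for division changed. Plau had 1 to 7 reads in PBS-treated libraries, so its folds have wide counting intervals.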
